A study of Mus musculus with 12 samples.

Results

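The respiratory chain genes were taken as every protein-coding row of the deposited count table whose Ensembl mouse identifier maps to a symbol for a subunit or near relative of respiratory complexes I to V. The symbols used begin with mt-Nd, mt-Co, mt-Cytb or mt-Atp for the mitochondrial genome, and with Ndufa, Ndufb, Ndufc, Ndufs, Ndufv, Uqcr, Cox4 to Cox8 or Atp5, or are Sdha to Sdhd, for the nuclear genome. This gave 106 of 47069 rows, 13 of them mitochondrial and 93 nuclear, and 103 passed the filter on low counts (all 13 mitochondrial and 90 nuclear). The rule used symbols and no measured value.

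The libraries were made from bilateral frontal cortex of male C57BL/6 mice, and fall into 4 groups of 3. Wild-type mice were given vehicle or clozapine, an antipsychotic drug that binds many monoamine receptors, at 10 mg/kg over a long period. Mice labelled HDAC2(loxP,loxP), CamKIIa-Cre(+,-) were given the same vehicle or clozapine. The age of the animals is not given in the sources used here. In the labelled knockout, Cre under the CamKIIa promoter acts mainly in excitatory forebrain neurons, while RNA was taken from whole tissue with all of its cell types. In such bulk samples, fewer cells of a type and less RNA per cell cannot be told apart. Libraries are named by group and label number: numbers 1, 3 and 4 for wild-type vehicle, 2, 3 and 5 for wild-type clozapine, 2, 4 and 5 for knockout vehicle, and 3, 4 and 5 for knockout clozapine. Values listed for a group follow that order. The labels do not say that the libraries of a group came from separate animals, and each p-value is measured against the spread among libraries, which may be technical.

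The respiratory chain passes electrons from NADH and succinate to oxygen through complexes I, II, III and IV in the inner mitochondrial membrane, and pumps protons that complex V, the ATP synthase, uses to make ATP. Neurons draw most of their ATP from this chain to run ion pumps and synapses. Mitochondrial DNA encodes core subunits of complexes I, III, IV and V, and these are transcribed as long joined transcripts from both strands and then cut into single RNAs. The other subunits, among them all of complex II, are encoded in the nucleus, made in the cytosol and imported. Nuclear respiratory factor 1 (Nrf1), the GA-binding protein, the estrogen-related receptors and Yy1 bind promoters of many nuclear subunit genes.

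Total counts per library ran from 23408372 to 28069638, and expression is given in counts-per-million (CPM) with library sizes scaled by the TMM method. Hdac2 itself, the gene named in the genotype, had 75.7, 63.4 and 70.0 CPM in wild-type vehicle, 75.5, 72.4 and 73.5 in wild-type clozapine, 75.4, 76.6 and 73.3 in knockout vehicle and 73.9, 70.5 and 71.2 in knockout clozapine. Hdac2 was not lower in the labelled knockout under vehicle (log2 change 0.11, SE 0.06, adjusted p = 0.277, edgeR) and showed -0.04 under clozapine (adjusted p = 0.804), so the genotype is given as labelled throughout. The defining markers of excitatory cortical neurons were high in every library, with a summed level of 5422 to 6649 CPM over 5 genes, among them Slc17a7 and Camk2a. Knockout clozapine 3 stood apart for markers of oligodendrocytes (5 genes, among them Mbp and Mog), whose sum was 1152 CPM there and 1407 to 1910 CPM in the other 11 libraries. Wild-type vehicle 3 held 53.3 CPM of Ttr, a choroid plexus marker, which was at 0.290 to 4.15 CPM in the other libraries. The other choroid plexus markers did not stand out there. Kl was highest in knockout clozapine 3 (5.11 CPM, against 4.38 in wild-type vehicle 3) and Kcnj13 in knockout vehicle 5 (0.969 against 0.692). Folr1 and Clic6 were highest in wild-type vehicle 3, but close to knockout clozapine 5 and knockout vehicle 4. Of the striatal markers, Drd1, Drd2, Adora2a and Rgs9 were highest in wild-type vehicle 3, and Ppp1r1b in knockout clozapine 5. Red blood cell markers (5 genes) summed to 437 CPM in wild-type clozapine 3 and to 122 to 303 CPM in the other libraries. The part of these differences in the values below was not tested.

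The 13 mitochondrial messages were far above the nuclear ones when compared per length. Coordinates throughout are those of GRCm38. Levels per length are CPM divided by the kilobases of exon of the gene, over all 12 libraries, where exon length is the union of all annotated transcripts and so understates genes with long minor transcripts. On that scale the mitochondrial members had a median of 1674 CPM per kb, and the nuclear members a median of 51.0 CPM per kb. The highest was mt-Co1 (chrM:5328-6872, + strand), the catalytic subunit of complex IV, at 8149 CPM per kb. It was followed by mt-Cytb, the cytochrome b of complex III, at 3581 CPM per kb, and by mt-Co2, which takes electrons from cytochrome c, at 3474 CPM per kb. The lowest were mt-Nd3 (chrM:9459-9806) at 596 and mt-Nd4l at 717 CPM per kb, both short membrane subunits of complex I. In counts, mt-Co1 alone made up 37.0% of the mitochondrial sum (35.6% to 38.3% in single libraries), and mt-Cytb 12.05%.

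Among the remaining mitochondrial members, mt-Nd1 reached 3019 CPM per kb, mt-Co3 2828 and mt-Atp6, which forms the proton path of the ATP synthase, 2803. The complex I subunits mt-Nd4, mt-Nd2 and mt-Nd5 lay at 1674, 1657 and 1368 CPM per kb, and mt-Atp8, an accessory subunit of the ATP synthase, at 1180. The one member on the other strand, mt-Nd6 (chrM:13552-14070, - strand), stood at 1425 CPM per kb, within the range of the other complex I messages. Whether strand was used in counting is not given, so the mt-Nd6 value may include reads from the opposite strand. Some of these genes overlap: mt-Atp8 and mt-Atp6 share 43 bases, mt-Nd4l and mt-Nd4 share 7, and mt-Nd5 and mt-Nd6 share 14 on opposite strands. Reads from shared bases cannot be assigned to 1 gene. All 13 have deposited values that are not whole numbers in at least 1 library, as have 47 members in all. Such values also occurred in genes that overlap no other mitochondrial member, in 12 libraries for mt-Co2 and 1 for mt-Cytb. Where they come from was not tested.

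**Figure D1:**
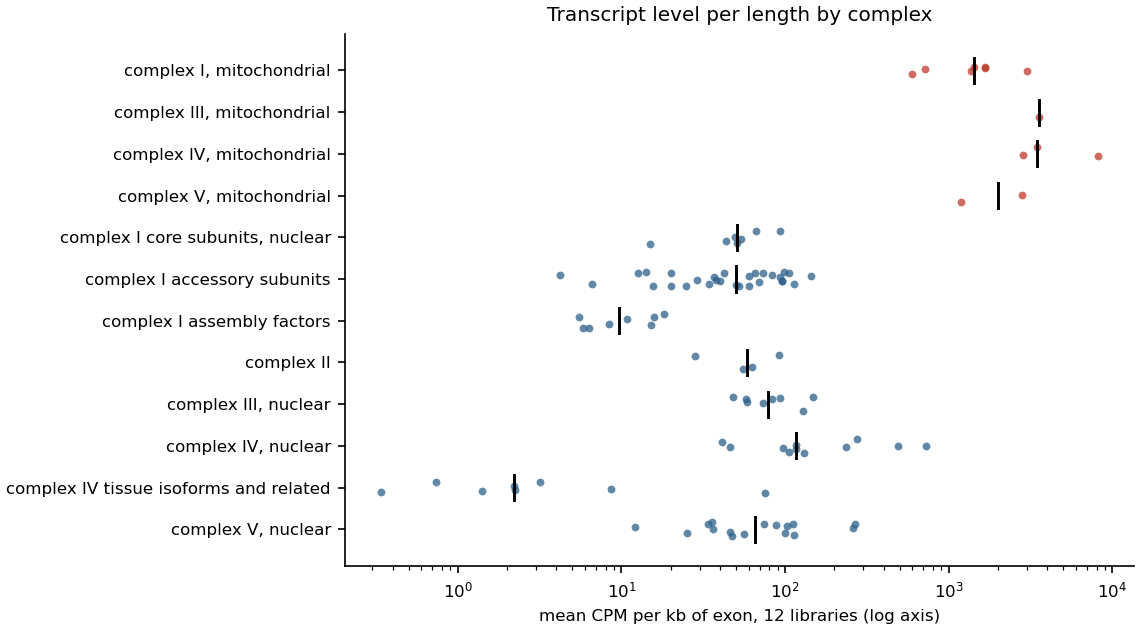
Level per length of each member, as mean CPM per kb of exon over 12 libraries on a log axis, by complex. Red points are mitochondrial genes, blue points nuclear genes, and the bars are medians over all members of the role; Cox8c, with no counts, has no point. The 13 mitochondrial messages lie between 596 and 8149 CPM per kb, and the tissue isoforms of complex IV have the lowest median of any role, 2.20 CPM per kb.

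Nuclear levels were highest in complex IV, which also held the forms nearest to 0. The 11 common nuclear subunits of complex IV had a median of 117 CPM per kb, from Cox6c at 41.4 to Cox8a at 730. Cox8a (chr19:7215153-7217616, - strand) encodes a small membrane subunit of complex IV. Subunits of complex III had a median of 78.1 CPM per kb, from Uqcrb at 48.3 to Uqcr10 at 149. The 16 nuclear subunits of complex V had a median of 65.5, from Atp5l at 12.03 to Atp5b, the catalytic beta subunit, at 268 CPM per kb. Complex II had a median of 58.9, from its membrane anchor Sdhc at 28.2 to the flavoprotein Sdha at 92.0 CPM per kb. In complex I the 7 nuclear core subunits had a median of 51.0, with Ndufs1 lowest at 15.0, and the 29 accessory subunits 50.3, from Ndufb2 at 4.21 to Ndufb9 at 145 CPM per kb. The 8 assembly factors of complex I whose symbols begin with Ndufaf, which help build the complex and are not part of it, were lower, with a median of 9.60, from Ndufaf2 at 5.52 to Ndufaf3 at 18.1 CPM per kb. Atp5s, which carries the family symbol but is not a main subunit, stood at 6.14 CPM per kb, and its smallest p was for genotype under clozapine (log2 change -0.10, adjusted p = 0.594, edgeR).

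For subunits with a common form and a form known from heart, muscle, lung or testis, the common form made up nearly all of the message in this cortex. Cox4i1, the common form of subunit 4, was 126 times as high per length as Cox4i2, the form known from lung. The ratio was 166 for Cox6b1 over the testis form Cox6b2. For the forms known from heart and muscle it was 57.2 for Cox6a1 over Cox6a2 and 36.9 for Cox7a2 over Cox7a1. Ndufa4, a subunit of complex IV despite its name, was 58.3 times as high as its relative Ndufa4l2. The heart and muscle form Cox8b, the testis form Cox8c and Cox7b2 did not pass the filter. Cox8b and Cox7b2 were at 0.735 and 0.340 CPM per kb, and Cox8c had 0 of 295295116 counts, which at 3 counts allows up to 0.131 CPM in a library (counting error only). Cox7a2l, which takes part in joining complexes III and IV into larger assemblies, was at 75.8 CPM per kb. The c subunit of complex V, which forms the rotor ring, is made from 3 genes, and Atp5g3 gave 62.8% of their summed level per length, Atp5g2 21.3% and Atp5g1 15.9%.

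Across libraries the mitochondrial messages varied together, while the nuclear sum stayed within narrow limits. The 13 mitochondrial members summed to 38587, 31365 and 30513 CPM in wild-type vehicle, 32961, 35210 and 34285 in wild-type clozapine, 35760, 35095 and 38060 in knockout vehicle and 27327, 31960 and 36881 in knockout clozapine. Group means were 33488 ± 4436, 34152 ± 1131, 36305 ± 1556 and 32056 ± 4777 CPM (SD, n = 3 each). The lowest sum was in knockout clozapine 3 and the highest in wild-type vehicle 1, and both lay in groups whose other libraries stood well apart from them, so every pair of groups overlapped. The 93 nuclear members summed to 11023, 10689 and 11010 CPM, then 11157, 10786 and 11033, then 10853, 10857 and 11124, and last 11006, 11083 and 10722. Their coefficient of variation within a group was 1.42% to 1.74%, against 3.31% to 14.9% for the mitochondrial sum.

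The ratio of the mitochondrial to the nuclear sum was 3.50, 2.93 and 2.77 in wild-type vehicle, 2.95, 3.27 and 3.11 in wild-type clozapine, 3.30, 3.23 and 3.42 in knockout vehicle and 2.48, 2.88 and 3.44 in knockout clozapine. This ratio does not depend on how library sizes are scaled, and its range within knockout clozapine alone, 2.48 to 3.44, took in 11 of the 12 libraries. In knockout clozapine 3, 12 of the 13 mitochondrial genes had their lowest value of the 12 libraries, the exception being mt-Co3, which was lowest in wild-type clozapine 5. In wild-type vehicle 1 and knockout vehicle 5 lay the highest values of 5 and 7 mitochondrial genes, and mt-Nd4l was highest in knockout clozapine 5. The 2 mitochondrial ribosomal RNAs, which are not members and are cut from the same joined transcripts, were summed beside them: 5645, 4083 and 4168 CPM in wild-type vehicle, 4269, 4647 and 4491 in wild-type clozapine, 4269, 4172 and 4677 in knockout vehicle and 2971, 4199 and 4182 in knockout clozapine. They too were lowest in knockout clozapine 3 and highest in wild-type vehicle 1. The part of the lower oligodendrocyte markers of knockout clozapine 3 in its low mitochondrial values was not tested.

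**Figure D2:**
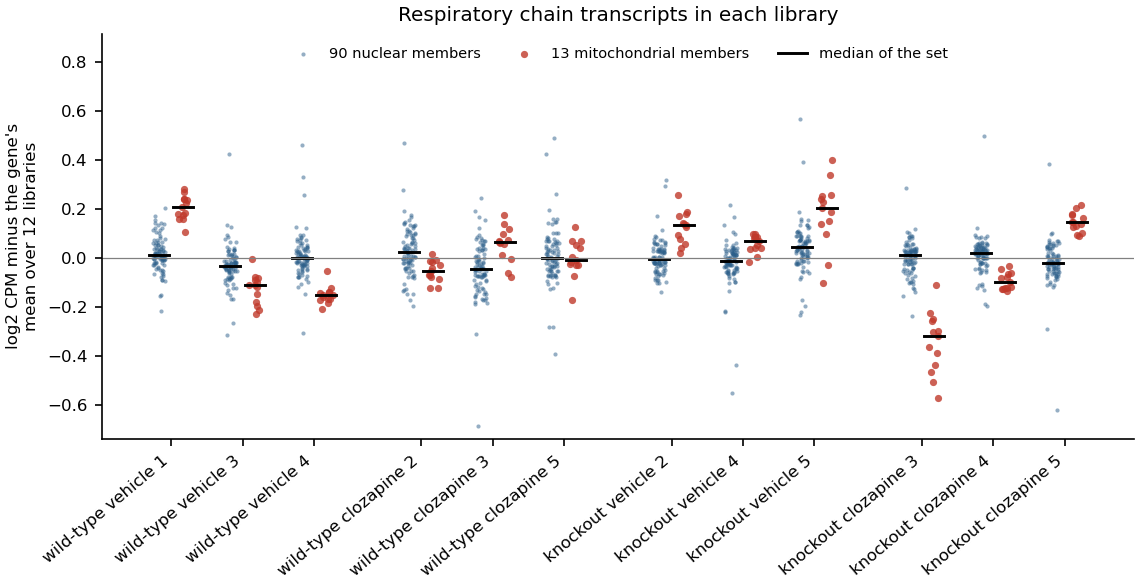
Each point is 1 gene in 1 library, as log2 CPM minus that gene's mean over the 12 libraries, for 90 tested nuclear members (blue) and 13 mitochondrial members (red), with the median of each set as a black bar. All 13 mitochondrial members lie below their means in knockout clozapine 3 (median -0.32) and above them in wild-type vehicle 1 (median 0.21), while nuclear medians stay between -0.05 and 0.04. All 13 also lie below in wild-type vehicle 3, wild-type vehicle 4 and knockout clozapine 4, and above in knockout vehicle 2 and knockout clozapine 5.

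The spread of single genes within groups differed in the same way. The pooled within-group SD on the log2 scale had a median of 0.178 over the mitochondrial members, 0.0613 over the nuclear members and 0.118 over all 17286 tested genes. For the mitochondrial members it was 0.202 in wild-type vehicle and 0.234 in knockout clozapine, against 0.0627 in wild-type clozapine and 0.0984 in knockout vehicle. Nuclear members are better counted than most genes, with a median of 85.3 CPM against 15.9 CPM over all tested genes.

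Ndufs5, an accessory subunit of complex I chosen here after its values were seen, was the most variable nuclear member among those above 10 CPM, with a pooled SD of 0.281. Its levels were 55.1, 52.4 and 70.4 CPM in wild-type vehicle, 61.2, 55.4 and 79.2 in wild-type clozapine, 56.9, 56.3 and 77.4 in knockout vehicle and 60.1, 56.6 and 38.3 in knockout clozapine. In each group 1 library stood well away from the other 2, upward in 3 groups and downward in knockout clozapine. The widest spread of any tested nuclear member was that of Cox6b2, at 0.410, whose level was 1.04 to 2.25 CPM.

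No respiratory chain gene passed the test in any of 5 comparisons. By edgeR's quasi-likelihood test with Benjamini-Hochberg adjustment over all tested genes (adjusted p under 0.05), 0 of 103 members were called for clozapine in wild type, where 0.816% of all tested genes were called. The count was 0 of 103 for clozapine in the labelled knockout (0.0231% of all genes), 0 of 103 for labelled knockout against wild type under vehicle (9.16%), 0 of 103 for the same under clozapine (2.0%), and 0 of 103 for the interaction (0.654%). The interaction is the log2 change with clozapine found for the labelled knockout, less the one found for wild type. DESeq2 called 0 members in each of the 5 as well, and 2.13%, 2.35%, 10.5%, 3.65% and 3.54% of the genes it gave an adjusted p. Limma-voom also called 0 members in each, and 0.607%, 0.0116%, 9.07%, 1.66% and 0.486% of all genes. At an unadjusted p under 0.05, edgeR had 10, 2, 2, 8 and 4 members in the same order, all nuclear, against 11.6%, 12.2%, 23.8%, 15.9% and 13.6% of all genes. Under vehicle the 2 members are 1.94% of 103. The comparisons share libraries: both genotype comparisons together, and both clozapine comparisons together, use the same 12.

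The intervals around the nuclear members were narrow. Under vehicle, the 95% interval of the genotype difference lay wholly within a 1.2-fold change in either direction for 78 of 90 nuclear members, and for 34.2% of all tested genes. That was so for 79 of 90 for clozapine in wild type, 79 for clozapine in the labelled knockout, 76 for genotype under clozapine and 62 for the interaction, against 40.6%, 40.1%, 38.0% and 18.6% of all genes. The median standard error of a nuclear member's log2 change was 0.05 in the 4 comparisons of groups, and that of all genes 0.10. The mitochondrial members had a median standard error of 0.13, and 5, 0, 1, 2 and 0 of the 13 had intervals within that fold in the order clozapine in wild type, clozapine in the labelled knockout, genotype under vehicle, genotype under clozapine and interaction. For the rest the interval reached beyond a 1.2-fold change. These counts depend on the fitted change as well as on its error, and the power to detect such a change was not computed.

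**Figure D3:**
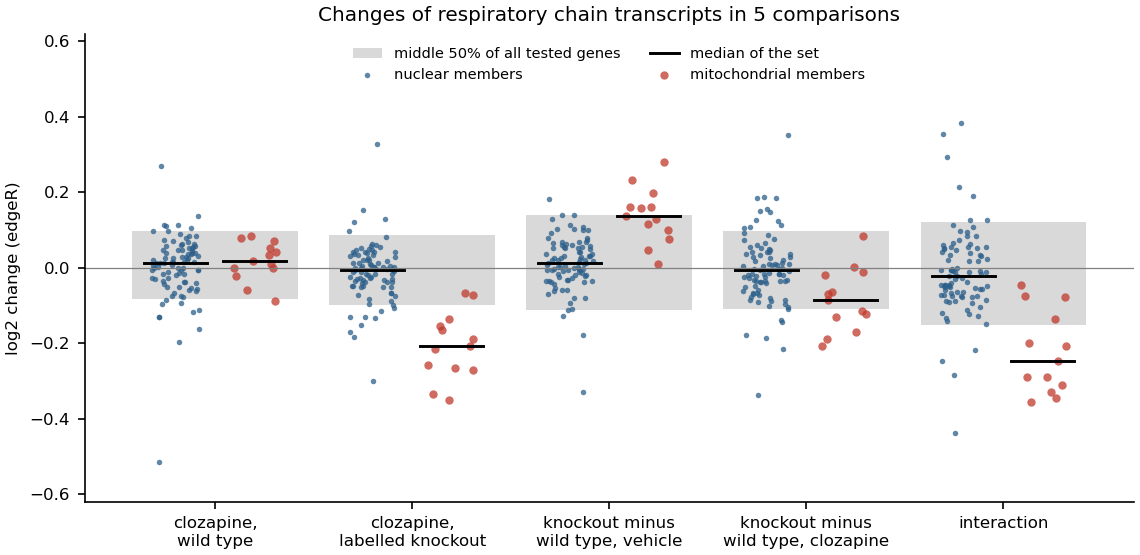
Log2 change of each tested member in 5 comparisons, 90 nuclear (blue) and 13 mitochondrial (red), with the median of each set as a black bar and the middle 50% of all 17286 tested genes as a grey band. Nuclear medians lie between -0.02 and 0.01. Mitochondrial medians are -0.21 for clozapine in the labelled knockout and -0.25 for the interaction, and no point passed the test.

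With clozapine in wild-type mice, no mitochondrial message passed the test. Their median log2 change was 0.02, from -0.09 for mt-Co3 to 0.08 for mt-Atp8, with 9 positive and 4 negative, and adjusted p from 0.749 to 0.9996. The sign of that median depended on the setting: without wild-type vehicle 1 it was 0.15, with all 13 positive, without wild-type vehicle 3 it was -0.03, without wild-type vehicle 4 it was -0.04, and with the length and GC correction it was -0.06, with all 13 negative. The 7 nuclear core subunits of complex I had a median of 0.07, the largest of any nuclear role, and their summed level was 859, 847 and 866 CPM in the wild-type vehicle libraries against 906, 901 and 905 CPM in the wild-type clozapine ones, with no overlap. None of the 7 passed the test. Complex II had a median of 0.05, with Sdha at 0.10 (adjusted p = 0.476). The lack of overlap was not particular to the core subunits of complex I. The summed level of complex II reached 670 CPM at most in wild-type vehicle, and was no lower than 682 CPM in wild-type clozapine. For the Ndufaf assembly factors these limits were 169.83 and 170.97 CPM. The sums of the other nuclear roles overlapped. The common nuclear subunits of complex IV had a median of -0.04 and those of complex V -0.00. The summed excitatory neuron markers were 5952 to 6430 CPM in wild-type vehicle and 5528 to 5699 CPM in wild-type clozapine, without overlap, and their part in these values was not tested.

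Of the nuclear members in that comparison, Ndufaf2 (chr13:108002715-108158623, - strand), an assembly factor of complex I, had the smallest p. It was at 15.4, 15.8 and 14.8 CPM in the wild-type vehicle libraries against 18.4, 18.7 and 18.3 CPM in the wild-type clozapine ones, groups that did not overlap. The log2 change was 0.27 (SE 0.07), and the adjusted p of 0.116 missed the threshold. Cox8a was at 502, 456 and 451 CPM in the wild-type vehicle libraries against 437, 403 and 420 CPM in the wild-type clozapine ones. These groups did not overlap either, and the change of -0.16 (SE 0.05) did not pass (adjusted p = 0.203). Atp5g1, one of the c subunit genes, and Atp5d, the delta subunit of the ATP synthase, had changes of -0.13 and -0.12 (adjusted p = 0.220 and 0.262). Cox4i2, near 2 CPM, had a change of -0.51 with an SE of 0.21. Over all members, 17 of 103 had wild-type groups that did not overlap, against 15.6% of all tested genes, so that share was near the background, and none was mitochondrial.

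In the labelled knockout, all 13 mitochondrial messages were lower with clozapine in the fitted values, with a median of -0.21, but none passed the test (adjusted p 0.438 to 0.895). The log2 changes were -0.27 for mt-Nd1 and mt-Nd2, -0.35 for mt-Nd3, -0.26 for mt-Nd4, -0.07 for mt-Nd4l and mt-Nd5 and -0.34 for mt-Nd6 in complex I. They were -0.14 for mt-Cytb, -0.15 for mt-Co1, -0.19 for mt-Co2, -0.17 for mt-Co3 and -0.21 for both mt-Atp6 and mt-Atp8. In single libraries mt-Nd1, the ubiquinone-site subunit of complex I, was at 3157, 3043 and 3431 CPM with vehicle and 2229, 2629.5 and 3130 CPM with clozapine, and knockout clozapine 5 reached into the vehicle range. For mt-Co1 the values were 12725, 12891 and 13814 CPM with vehicle and 10039, 12009 and 13392 CPM with clozapine. Here too knockout clozapine 5 lay among the vehicle libraries, and knockout clozapine 3 was lowest.

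Without knockout clozapine 3 the median of the 13 was -0.12, from -0.22 to 0.04, with 11 negative and 2 positive. Without knockout clozapine 5 it was -0.35, and over all 12 libraries left out in turn it lay between -0.35 and -0.12. With each library corrected for gene length and GC content the median was -0.07, with 10 negative. The mitochondrial members had a median GC content of 37.1%, against 49.8% for all tested genes. In the uncorrected values of this comparison, the log2 change over 17197 genes had a Spearman correlation of 0.125 with GC content and 0.183 with gene length. These genes share the same 12 libraries, so the correlations are descriptions. The parts of length and GC content in the lower mitochondrial values were not tested apart from each other.

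Nuclear members showed no such shift in the labelled knockout, with a median of -0.01 and 40 positive against 50 negative. The smallest p was that of Atp5h (chr11:115415689-115419962, - strand), a subunit of the stalk that holds the ATP synthase head still. It was at 155, 154 and 166 CPM in the knockout vehicle libraries against 140.5, 149 and 145 CPM in the knockout clozapine ones, with no overlap. Its change was -0.13 (SE 0.05, adjusted p = 0.261). Ndufab1, the mitochondrial acyl carrier protein and a complex I subunit, was at -0.13 (adjusted p = 0.395), and the assembly factors Ndufaf5 and Ndufaf8 at 0.13 and 0.15 (adjusted p = 0.424 and 0.479). Groups did not overlap for 16 of 103 members, against 18.7% of all genes. The summed excitatory neuron markers ran from 5422 to 6311 CPM in knockout vehicle and from 6537 to 6649 CPM in knockout clozapine, without overlap, and their part in these values was not tested.

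Between the labelled knockout and wild type under vehicle, where the share of all genes called was highest of the 5 comparisons, no member of the chain was called. The nuclear median was 0.01, and the 13 mitochondrial members had positive changes with a median of 0.14, from 0.01 for mt-Nd4l to 0.28 for mt-Nd3, none past the test (adjusted p 0.252 to 0.971). In mt-Co3, with the smallest p, the libraries had 2462, 2074 and 2024 CPM in the wild-type vehicle libraries against 2482, 2264 and 2587 CPM in the knockout vehicle ones. Wild-type vehicle 1 lay within the range of the labelled knockout, and the other 2 below it. Without that library the mitochondrial median was 0.26 and the lowest adjusted p 0.0681, while without wild-type vehicle 3 or wild-type vehicle 4 the median was 0.08. With the length and GC correction the median was 0.04, with 9 positive and 4 negative. These results rest on the same vehicle libraries as the clozapine comparisons above.

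The nuclear member nearest to the threshold was Ndufv3 (chr17:31520115-31531331, + strand), a small subunit of the NADH-binding arm of complex I. Its levels were 44.6, 49.1 and 47.4 CPM in the wild-type vehicle libraries against 52.2, 53.0 and 55.0 CPM in the knockout vehicle ones, with no overlap. The log2 change was 0.18 (SE 0.06, adjusted p = 0.0630). It passed with the length and GC correction (adjusted p = 0.0492) and without wild-type clozapine 3 (adjusted p = 0.0437), a library outside this comparison that enters the shared estimate of spread. With a replicate block its change was 0.09 (adjusted p = 0.569). Ndufaf1, an assembly factor of complex I, was at -0.18 (SE 0.08, adjusted p = 0.189). Leaving out knockout vehicle 5 brought it to -0.11. Atp5mpl, a small ATP synthase subunit, was at 0.14 (adjusted p = 0.212), and between 0.08 and 0.21 with single libraries left out. The next was Ndufaf5 at -0.13 (adjusted p = 0.226). Of 103 members 13 had groups that did not overlap, against 27.3% of all tested genes.

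Under clozapine the genotype comparison gave a mitochondrial median of -0.09, with 2 positive and 11 negative, and a nuclear median of -0.01. Without knockout clozapine 3 the mitochondrial median was 0.01, and without knockout clozapine 5 it was -0.21. With the length and GC correction it was 0.03, with 8 positive and 5 negative. Ndufc1 (chr3:51404677-51408988, - strand), a membrane subunit of complex I, had the smallest p. Its levels were 33.0, 33.1 and 36.6 CPM in the wild-type clozapine libraries against 38.7, 39.5 and 38.7 CPM in the knockout clozapine ones, with no overlap. The change of 0.19 (SE 0.06) had an adjusted p of 0.126, and of 0.0222 with the length and GC correction.

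Cox8a and Ndufaf2, which had the smallest p values for clozapine in wild type, were again among the 4 of smallest p, with opposite signs. Both comparisons use the same wild-type clozapine libraries. Cox8a was at 455, 465 and 482 CPM in knockout clozapine, above the 3 wild-type clozapine libraries (0.16, SE 0.05, adjusted p = 0.155). Ndufaf2 was at 16.1, 14.4 and 17.2 CPM in knockout clozapine, below all 3 (-0.22, SE 0.07, adjusted p = 0.151). Uqcr11, a small subunit of complex III, was at 0.15 (adjusted p = 0.160). The groups did not overlap for 20 of 103 members, against 22.5% of all genes.

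For the interaction, the mitochondrial members had a median of -0.25, with 13 negative and none past the test (adjusted p 0.467 to 0.949). Without knockout clozapine 3 the median was -0.13, without wild-type vehicle 1 it was -0.41, and with the length and GC correction it was -0.01. Nuclear members had a median of -0.02. The smallest p values were those of Cox8a (0.21, SE 0.08, adjusted p = 0.224), Ndufaf2 (-0.28, SE 0.10, adjusted p = 0.240), Uqcr11 (0.19, adjusted p = 0.277) and the assembly factor Ndufaf6 (0.29, SE 0.13, adjusted p = 0.352).

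Among 11 listed genes that control the chain, 2 transcription factors were lower in the labelled knockout under vehicle. Esrra (chr19:6910977-6921813), the estrogen-related receptor alpha, which drives genes of oxidative metabolism, was at 91.4, 91.5 and 85.8 CPM in the wild-type vehicle libraries against 69.8, 75.2 and 74.6 CPM in the knockout vehicle ones. The log2 change was -0.29 (SE 0.05, adjusted p = 0.00262). Nrf1 (chr6:30047988-30153458) was at 20.5, 19.3 and 18.6 CPM in the wild-type vehicle libraries against 15.3, 16.2 and 15.0 CPM in the knockout vehicle ones, a change of -0.33 (SE 0.07, adjusted p = 0.0123). In both genes every knockout vehicle library lay below every wild-type vehicle library. Without wild-type vehicle 1 the adjusted p of Nrf1 was 0.0541.

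Esrra and Nrf1 were the 2 of 11 listed regulators that passed in this comparison, both lower, where 9.16% of all tested genes were called. The median of the list was -0.17 against 0.00 over all genes. Gabpb1, a subunit of the GA-binding protein, had a change of -0.32 (adjusted p = 0.0575), Yy1 -0.17 (adjusted p = 0.0541) and Esrrb, near 4 CPM, 0.46 (adjusted p = 0.0549). The coactivator Ppargc1a, a master regulator of mitochondrial biogenesis, had -0.03 (adjusted p = 0.849). With clozapine, the genotype change of Esrra was -0.06 (adjusted p = 0.637) and that of Nrf1 -0.06 (adjusted p = 0.734). The difference between the effects of the 2 treatments, tested as the interaction, was 0.23 for Esrra (adjusted p = 0.160) and 0.26 for Nrf1 (adjusted p = 0.283), so neither was shown to differ between vehicle and clozapine. No regulator passed in the other 4 comparisons by edgeR, with 2, 4, 3 and 3 at an unadjusted p under 0.05 for clozapine in wild type, clozapine in the labelled knockout, genotype under clozapine and interaction, where 11.6%, 12.2%, 15.9% and 13.6% of all genes had such a p.

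**Figure D4:**
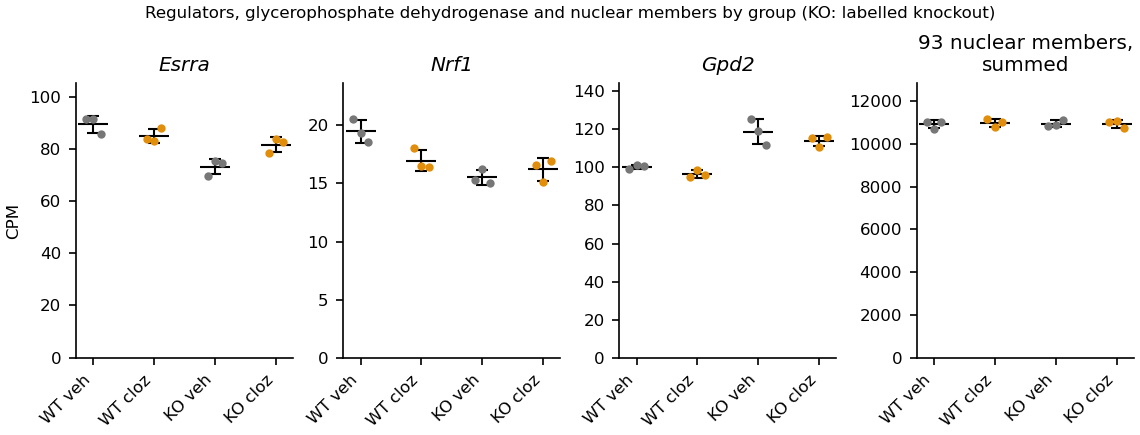
CPM of Esrra, Nrf1 and Gpd2 and the summed CPM of the 93 nuclear members in each library, by group (points), with mean and SD of 3 libraries (black); axes start at 0. Esrra and Nrf1 are lowest in knockout vehicle, Gpd2 is above 110 CPM in the 6 labelled knockout libraries and below 102 CPM in the 6 wild-type libraries, and the nuclear sum lies between 10689 and 11157 CPM in all 12.

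Many of the nuclear members have promoters that hold the motif that Nrf1 recognises. Promoter windows from RefSeq (GRCm38.p6), from 250 bases before to 50 after the start, were at hand for 74 of the 93 nuclear members. The palindrome-like Nrf1 motif, searched on both strands with 1 free base, occurred in 19 of those 74 genes (25.7%) and in 5.19% of all 27025 genes with a window. Here and for the other motifs below, the genes compared were not matched for base composition or expression. The part of these in the difference was not tested. Stretches of 60 bases around the match are shown for 6 genes, so that the match can be seen in members of complexes I, II, IV and V. Capitals mark the match to the motif, which may lie on either strand, and each stretch is written 5′ to 3′ on the strand of its gene.
Ndufa11 (chr17:56717677-56717736, + strand): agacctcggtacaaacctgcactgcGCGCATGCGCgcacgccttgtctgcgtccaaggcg
Sdha (chr13:74350304-74350363, - strand): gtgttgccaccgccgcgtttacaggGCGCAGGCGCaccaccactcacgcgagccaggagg
Sdhd (chr9:50603894-50603953, - strand): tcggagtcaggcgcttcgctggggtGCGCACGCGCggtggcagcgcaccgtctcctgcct
Cox6a1 (chr5:115349086-115349145, - strand): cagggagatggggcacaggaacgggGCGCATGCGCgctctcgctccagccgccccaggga
Atp5g2 (chr15:102671055-102671114, - strand): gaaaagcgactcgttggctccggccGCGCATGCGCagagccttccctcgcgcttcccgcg
Atp5h (chr11:115420026-115420085, - strand): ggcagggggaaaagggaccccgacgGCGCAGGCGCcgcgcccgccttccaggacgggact
A match is a description of the letters and not evidence of binding, and whether Nrf1 acts on these genes was not tested.

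Under vehicle, the 19 members with this motif had a median log2 genotype change of 0.03, from -0.13 to 0.10, with 0 called by edgeR, as for all 103 members (9.16% of all genes), and 0 at an unadjusted p under 0.05. The 53 tested members whose window lacks it had a median of 0.00, with 0 called and 2 at that unadjusted p. Sdha, whose stretch is printed above, was at 369, 368 and 380 CPM in the wild-type vehicle libraries against 364, 383 and 373 CPM in the knockout vehicle ones, and the groups overlapped. Cox6a1 was at 376, 334 and 333 CPM in the wild-type vehicle libraries against 341, 331 and 356 CPM in the knockout vehicle ones, again with overlap. Other motifs were searched in the same windows. The ETS-type letters CCGGAAGT, bound by the GA-binding protein, occurred in 5 of 74 genes (6.76%, against 4.31% of all genes), the Yy1 motif in 6 (8.11% against 0.995%), and the letters TCAAGGTCA of the estrogen-related receptors in 2 (2.70% against 0.466%), which were Atp5g3 and Sdhd.

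Beside the chain itself, a list of 9 electron carriers and further chain genes outside the symbols used had 1 member that rose in the labelled knockout. That member was called under vehicle, where 9.16% of all tested genes were called, and under clozapine, where 2.0% were. Gpd2 (chr2:57237635-57370719), the mitochondrial glycerol-3-phosphate dehydrogenase, which feeds electrons from cytosolic NADH to ubiquinone, was at 99.2, 101 and 100.5 CPM in the wild-type vehicle libraries against 125, 119 and 112 CPM in the knockout vehicle ones. The change was 0.24 (SE 0.05, adjusted p = 0.00608). With clozapine it was at 94.8, 98.6 and 95.9 CPM (wild type) against 115, 111 and 116 CPM (labelled knockout), a change of 0.24 (SE 0.05, adjusted p = 0.0188). All 6 labelled knockout libraries lay above all 6 wild-type libraries. The second of these calls ended without wild-type clozapine 5, knockout clozapine 3 or knockout clozapine 5 (adjusted p = 0.0542, 0.0955 and 0.0638).

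Cycs, cytochrome c, and Cyc1, the cytochrome c1 subunit of complex III, did not pass in any of the 5 comparisons. Dhodh, the pyrimidine synthesis enzyme that hands electrons to ubiquinone, had a change of 0.31 with clozapine in wild type (SE 0.07, adjusted p = 0.0543). Atpaf1, an assembly factor of the ATP synthase, had 0.21 in the same comparison (SE 0.05, adjusted p = 0.0543). It had the smallest p of 35 tested assembly genes outside the symbols used. Of those 35, 0 were called in the 5 comparisons, where 0.816%, 0.0231%, 9.16%, 2.0% and 0.654% of all tested genes were called.

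Of 77 tested mitochondrial ribosomal proteins, which make the 13 mitochondrial proteins, Mrps35 fell in the labelled knockout under vehicle (-0.32, SE 0.07, adjusted p = 0.0116), 1 gene in a comparison where 9.16% of all genes were called, and the median of the list was 0.00. Its levels were 20.9, 24.99 and 23.7 CPM in the wild-type vehicle libraries against 18.1, 18.3 and 19.3 CPM in the knockout vehicle ones. Leaving out wild-type vehicle 3 (adjusted p = 0.0704) or knockout vehicle 2 (adjusted p = 0.0532) ended that call. Of 80 tested cytosolic ribosomal proteins, Rps20 alone rose in that comparison, against the same 9.16% (0.21, SE 0.05, adjusted p = 0.0212), and the median was 0.07. That call ended without wild-type vehicle 3, knockout vehicle 2 or knockout vehicle 5 (adjusted p = 0.112, 0.0641 and 0.0776) and with only the groups compared in the fit (adjusted p = 0.0547).

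No gene was called in any comparison among 27 genes of mitochondrial DNA maintenance and expression, where edgeR had 4, 0, 2, 2 and 2 genes at an unadjusted p under 0.05 in the order of the 5 comparisons, against 11.6%, 12.2%, 23.8%, 15.9% and 13.6% of all genes. Hsd17b10, a part of the mitochondrial enzyme that cuts transfer RNAs out of the joined transcripts, had the smallest p (0.25 for genotype under vehicle, SE 0.09, adjusted p = 0.108). Tfam, which packs mitochondrial DNA and starts its transcription, had 34.0, 37.0 and 37.0 CPM in the wild-type clozapine libraries against 32.6, 33.0 and 31.6 CPM in the knockout clozapine ones (-0.15, adjusted p = 0.225). The 17 genes of the tricarboxylic acid cycle and pyruvate dehydrogenase, which supply the chain with NADH and succinate, also had 0 calls, and 2, 1, 4, 1 and 3 at an unadjusted p under 0.05, to be read against the same shares of all genes. Dld, a subunit shared by the dehydrogenase complexes, had the smallest p of that list (-0.23 for the interaction, SE 0.07, adjusted p = 0.147).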

How the data were processed

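RNA from frontal cortex was sequenced as mRNA libraries, per the labels' protocols. The submitters' processing notes name STAR 2.5.1b, featureCounts and the GRCm38 build. The authors deposited estimated counts per gene, some not whole, which were rounded to whole numbers for the tests. How shared reads were split and whether strand was used is not given in the sources used here, so overlapping genes and genes with pseudogene copies (11 with a matching symbol) are uncertain.

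Identifiers were matched without version to GENCODE mouse release M21 (GRCm38), which named 46574 of 47069 rows. edgeR 4.0.16 in R 4.3.3 was fitted to all 12 libraries as 4 group means (TMM scaling, filterByExpr, robust quasi-likelihood test, Benjamini-Hochberg adjustment over 17286 genes holding 99.9% of counts, threshold 0.05). Total counts, 23408372 to 28069638 a library, make counting error small for most members, and the spread between libraries sets precision. Alternatives were DESeq2 1.42.0, limma-voom (limma 3.58.1), RLE size factors, scaling without mitochondrial rows, other filters, unrounded counts, only the groups compared, a replicate block, correction for length and GC content (mgcv 1.9.3), 1 surrogate variable (sva 3.50.0), a threshold of 0.10 and each library left out. The fit was tested on simulated data with 17286 genes for clozapine in wild type, where it recovered 18 of 50 genes changed 1.25-fold and 42 of 50 changed 2-fold, with 8 false calls.

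The members and gene lists were chosen with earlier results of these data known. Named genes are Hdac2, all mitochondrial members, in each comparison the nuclear members past the threshold or else the 4 of smallest p, the highest and lowest of each role by level per length and its member of smallest p, and from each list up to 3 called genes or the 1 of smallest p; values of other members are given as examples. Results for some genes that the rule names are not reported here.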

Additional observations from a re-analysis of the deposited data

How the results depend on the processing

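Of the 5 counts of members called, 3 stayed at 0 under every alternative run. For genotype under vehicle 1 member, Ndufv3, was called with the length and GC correction, at a threshold of 0.10 and without wild-type clozapine 3, so that the count ranged from 0 to 1 with single libraries left out. For genotype under clozapine 1 member, Ndufc1, was called with the length and GC correction. No direction of a called value reversed. The nuclear median for clozapine in wild type was -0.024 with the replicate block and the correction together, and -0.022 to 0.034 with single libraries left out. For clozapine in the labelled knockout it was 0.025 with the correction and 0.031 with block and correction, for genotype under vehicle -0.022 and -0.029, and for the interaction 0.042 and 0.055. The mitochondrial median for the interaction was -0.0093 with the correction and 0.036 with block and correction, and -0.41 to -0.13 with single libraries left out; the ranges were -0.04 to 0.15 for clozapine in wild type, -0.35 to -0.12 for clozapine in the labelled knockout, 0.08 to 0.26 for genotype under vehicle and -0.21 to 0.01 for genotype under clozapine. The labels give libraries numbers but do not say that these pair animals, so no pairing was used. Deviations of same-numbered libraries of different groups correlated at -0.08 to 0.12 (10 pairs, median -0.03). Those of differently numbered libraries correlated at -0.21 to 0.15 (44 pairs, median 0.01), and so few libraries cannot settle whether the numbers pair. A replicate block gave 18, 174, 385, 328 and 12 called genes in the order of the 5 comparisons, against 141, 4, 1584, 345 and 113 without it. With a replicate block, 0 members were called in each comparison, the mitochondrial medians were 0.11, -0.19, 0.18, -0.08 and -0.30, and under vehicle Nrf1 (adjusted p = 0.140), Gpd2 (0.0729) and Rps20 (0.130) were not called. With block and correction, neither were Esrra (0.0515), Nrf1 (0.236), Mrps35 (0.0754) and Rps20 (0.252). The fit of only the groups compared could not be made for the interaction. Depth limits the isoforms near or below 2 CPM.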
